A study of Mus musculus with 15 samples.

Results

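Glycolysis and glycogen metabolism were followed enzyme by enzyme in mouse gastrocnemius, the large muscle of the calf, in a list of 33 genes that runs from glucose entry to lactate, then through glycogen breakdown and glycogen synthesis. A gene was included where its symbol stood in the annotation of the array, and all of its probe sets (groups of short oligonucleotides that read a single transcript) were used. Of the 33 genes, 30 had a probe set, and Gpi1, Eno1 and Pfkfb1 had none under those symbols and are not described further. Gene symbols on the array numbered 12394, and the 30 genes were read by 60 of the 22690 probe sets of the array. Of these, 57 probe sets of 29 genes entered the tests over 22626 probe sets, and the other 3 were the Gapdh control probe sets of the manufacturer, which were tested apart. Among the tested members, 16 genes had more than 1 probe set, and 50 of the 57 probe sets lay among the brighter 11313.

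Glycolysis splits glucose into pyruvate and yields ATP without oxygen, and in a fast muscle such as gastrocnemius most of its sugar phosphate comes from glycogen stored in the fiber. Hexokinase and phosphofructokinase hold the steps at which the flow is known to be controlled, glycogen phosphorylase releases glucose 1-phosphate under the command of phosphorylase kinase, and glycogen synthase builds the polymer back from UDP-glucose. Several steps have a muscle isoform and 1 or more isoforms that prevail in other tissues.

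The 3 groups were male C57BL/6NHsd mice, each housed alone, with 5 mice and 5 arrays per group. Old CR mice were 25 months old and had lived on caloric restriction (CR), with 26% fewer calories than the control diet. Their chow carried more protein, vitamins and minerals, so that the intake of these was nearly the same on both diets. Old mice were 25 months old and young mice 5 months old, and both were fed the control diet at 84 kcal per week. Each array was hybridized with labelled copies (cRNA) of the RNA of 1 whole muscle sample, so fewer fibers of a kind and less RNA per fiber cannot be told apart. Values are intensities (brightness of a probe set on a linear scale, scaled by array), differences are on the log2 scale with their SE, and a probe set is called where limma's adjusted p was under 0.05 over all probe sets tested. Every adjusted p without another test named comes from that fit, and the p-values measure the spread between mice. Single values are listed by replicate number, which is 2, 3, 5, 6 and 7 in old CR mice and 1 to 5 in the other groups.

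Across the 15 arrays the log2 intensities correlated at 0.893 to 0.974. Skeletal muscle fiber markers were bright in every mouse, with summed intensities of 200312 to 303250 in old CR mice, 188025 to 259359 in old mice and 239635 to 274485 in young mice for 8 genes, and none was called. All 8 had higher values in old CR than in old mice (median 0.31 on the log2 scale) and lower values in old than in young mice (median -0.19), the same directions as most members below. Slow fiber markers were all 8 higher in old CR mice than in old mice, and 2 were called (Tnnc1 by 1.45 and Tpm3 by 1.42 on the log2 scale). Their summed intensities were 75884 to 105367 in old CR mice, 33906 to 70674 in old mice and 28221 to 81257 in young mice. All 8 were also higher in old CR than in young mice (median 0.78), with none called. The gap between the 3' and the 5' probe set of Gapdh (3' minus 5', log2), which grows when RNA is broken or copied short, was -0.21 ± 0.12 in old CR mice, 0.25 ± 0.10 in old mice and -0.04 ± 0.19 in young mice (SD, n = 5 each), and the highest young value, 0.28, was that of young replicate 3. Old CR and old mice did not overlap on it. For Actb it averaged -0.38 in old CR mice, 0.01 in old mice and -0.32 in young mice. These marker levels and gaps move with the groups, and their part in the results below was not tested beyond the fits with the gap, averaged over Gapdh and Actb, as a covariate. Young replicate 3 also stood with the old mice on several members, so calls that appeared or were lost without it are named beside the fit of all arrays. By the brightest probe set it lay nearer the mean of the old mice than that of the other young mice in 16 of 29 genes. It was singled out after its values were seen, so calls without it are descriptions and not support.

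Of the 57 member probe sets none was called between old and young mice, with a smallest adjusted p of 0.0556. Of all probe sets, 0.119% were called higher and 0.146% lower in that comparison. At an unadjusted p under 0.05 by limma, 20 member probe sets were lower in old mice and 4 higher. The share of all probe sets at that threshold is not given here, so these counts are not read as a result about the members. The sign of the difference was negative for 46 probe sets and positive for 11, where 57.0% of all probe sets were negative. By the brightest probe set of each gene, 24 of 29 genes were negative with a median of -0.27. The median was -0.06 over all probe sets and -0.02 over the brighter 11313. The groups did not overlap for 6 probe sets that were lower in old mice, which is 10.5% of the members beside 2% of all probe sets, and for 1 that was higher, which is 1.75% beside 1.61%. Without young replicate 3, limma called 9 member probe sets lower in old mice and 0 higher, beside 3.24% of all probe sets called lower and 1.48% higher. Leaving out an array that stood with the old mice widens such differences by its choice, and leaving out any other array gave no call.

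Old CR mice differed from old mice in the other direction: 8 of the 57 probe sets, from 7 genes, were called higher and none lower. That is 14% of the members, where 2.7% of all probe sets were called higher and 2.17% lower. Most members lay among the brighter probe sets, so these shares are not of sets of like brightness. The called genes were Aldoa, Tpi1, Bpgm, Pkm, Gys1 (by 2 probe sets), Ugp2 and Pfkfb3. The difference was positive for 48 probe sets and for 24 of 29 genes, where 55.3% of all probe sets were positive. The median over genes was 0.20, against 0.06 over all probe sets and -0.004 over the brighter 11313. The groups did not overlap for 8 probe sets higher in old CR mice (14% of the members beside 4.86% of all), of which 4 were among the called, and for 1 lower (1.75% beside 4.04%). With each array centred on its median the calls were 4 higher and 1 lower. When 1 array was left out, the number called ran between 0 (without old CR replicate 7) and 13 (without young replicate 3). The 13 were the 8 above, Slc2a4 1415959_at, Hk1 1420901_a_at, Pfkm and Bpgm 1415864_at, also higher, and Phka1 1435567_at, lower, beside 4.28% of all probe sets called higher and 3.04% lower in that fit. With the 3'-to-5' gap as a covariate 0 were called. Old CR and old mice did not overlap on this gap, so that fit can hardly separate group from gap. The SE of the brightest Aldoa probe set, for example, was 0.14 in the main fit and 0.29 with the covariate. The share of all probe sets called is not given here for the centred, covariate and other leave-out fits. Their counts are therefore not read as a result about the members. A lognormal-normal model, which gives each probe set a posterior probability of a difference, passed 0.9 for 3 of the 8, Bpgm, Gys1 1450196_s_at and Pfkfb3. The model takes the same SD for all probe sets (0.34 on the log2 scale), and these 3 had the largest differences of the 8. A smaller difference on a probe set with little spread can hardly pass in it. Both comparisons use the same 5 old mice, so their opposite signs are not independent of each other.

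Between old CR and young mice a single probe set, of Ugp2, was called higher in old CR mice and none lower, beside 0.0486% of all probe sets called higher and 0.0398% lower. Of the 57 differences 27 were positive, where 49.2% of all probe sets were positive. The median over genes was -0.10, against -0.01 over all probe sets and -0.02 over the brighter 11313. It lay between -0.12 and -0.01 when 1 array was left out. The groups did not overlap for 3 probe sets higher in old CR mice, all of Ugp2 (5.26% of the members beside 1.68% of all), and for 5 lower, of Pfkp, Pgam2 and Phka1 (8.77% beside 1.89%). In each mouse, the median deviation of the 29 genes from their mean over all arrays was -0.10 to 0.18 in old CR mice, -0.36 to -0.03 in old mice and -0.01 to 0.19 in young mice. Old CR and old mice overlapped on this measure through old CR replicate 2, and the lowest young mouse was replicate 3.

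**Figure D1:**
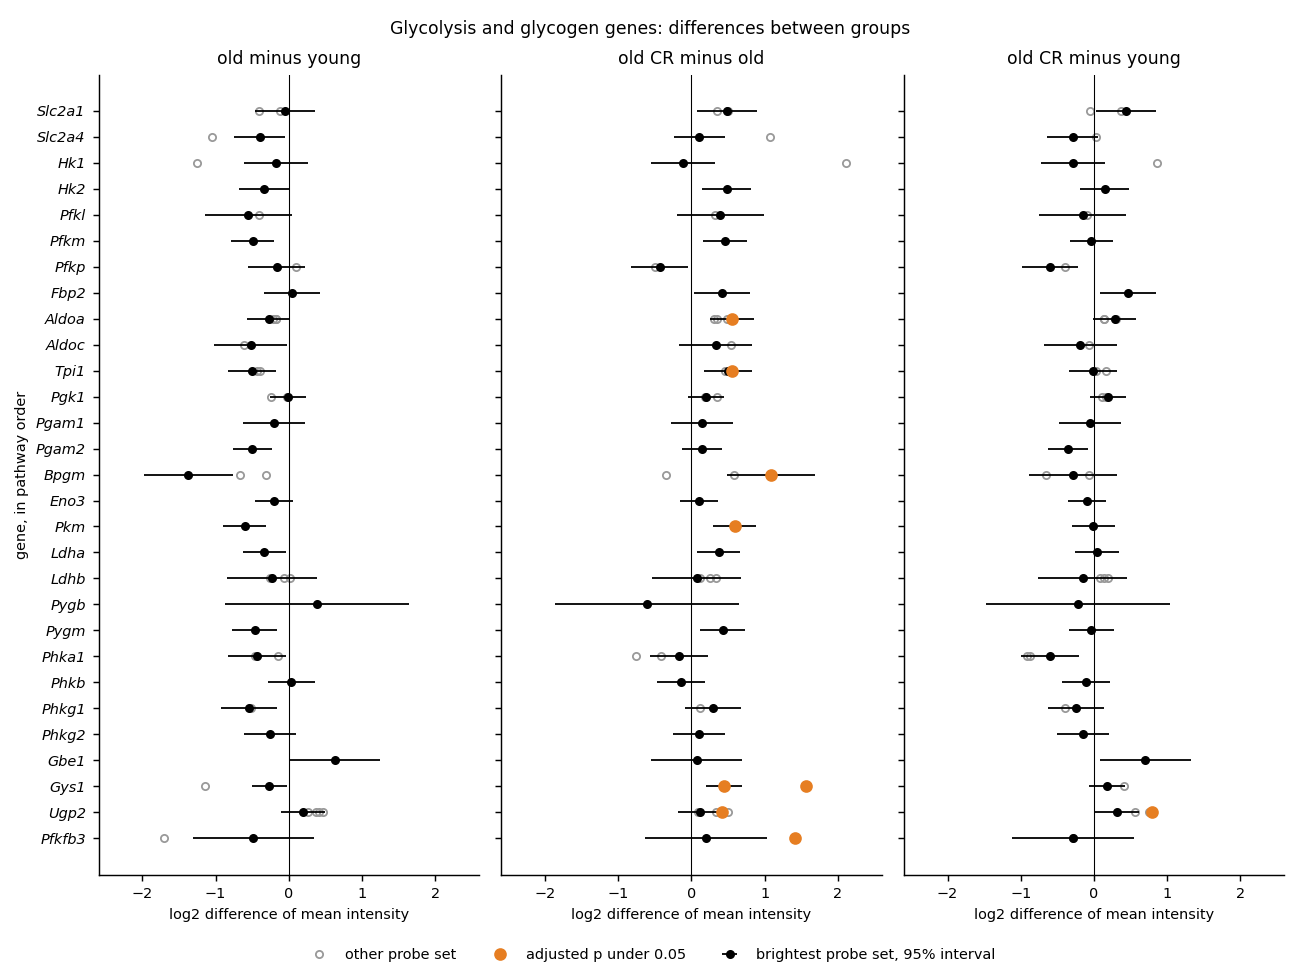
Log2 differences of mean intensity for the 29 tested genes in pathway order, from glucose entry at the top to the glycogen genes and Pfkfb3 at the bottom, for old minus young, old CR minus old and old CR minus young (5 mice per group). Black points are the brightest probe set of a gene with its 95% interval, open circles its other probe sets and orange points the probe sets called by limma. Most points lie left of 0 for old minus young and right of 0 for old CR minus old, and the 8 orange points of the middle panel are all right of 0.

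Glucose enters the fiber through Slc2a4 (GLUT4, the transporter that insulin and contraction bring to the surface) and at rest through Slc2a1 (GLUT1). Slc2a4 by its brightest probe set, 1415958_at, ranged from 4234 to 6158 in old CR mice, 3348 to 6042 in old mice and 5940.1 to 7002 in young mice. It differed by -0.40 ± 0.16 between old and young mice (adjusted p = 0.253) and by 0.11 ± 0.16 between old CR and old mice (adjusted p = 0.745). The other Slc2a4 probe set, 1415959_at, gave other values and is taken up with the probe sets that disagree. Slc2a1 was dim, at 169 to 295 in old CR mice, 154 to 219.5 in old mice and 156 to 273 in young mice, and differed by 0.49 ± 0.19 between old CR and old mice and by 0.43 ± 0.19 between old CR and young mice, with no call.

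Hexokinase traps glucose as glucose 6-phosphate, with Hk2 as the muscle isoform and Hk1 as the isoform of most tissues. Hk2 averaged 4284 ± 785 in old CR mice, 3055 ± 539 in old mice and 3821 ± 177 in young mice (SD, n = 5 each). Its difference was 0.48 ± 0.16 between old CR and old mice (adjusted p = 0.0905) and -0.34 ± 0.16 between old and young mice (adjusted p = 0.319), and neither was called. Hk1 averaged 372 ± 50.9 in old CR mice, 408 ± 91.5 in old mice and 464 ± 113 in young mice, and the largest of its 3 differences was -0.29 ± 0.20, between old CR and young mice. Another and dimmer Hk1 probe set, 1420901_a_at, ranged from 74.3 to 152 in old CR mice, 7.88 to 74.5 in old mice and 11.4 to 156 in young mice.

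Phosphofructokinase commits the sugar to glycolysis. Pfkm encodes the muscle subunit, Pfkl the liver subunit and Pfkp the platelet subunit. Pfkm had intensities of 17508, 18996, 22009.8, 23800.1 and 21642 in old CR mice, 15659, 13617, 16721, 12456 and 17484 in old mice, and 21918, 23365, 16927, 22162 and 22366 in young mice. The lowest old CR value lay just above the highest old value, so these groups did not overlap, and among young mice replicate 3 stood at the level of the old mice while the other 4 lay above all of them. Pfkm differed by -0.49 ± 0.14 between old and young mice (adjusted p = 0.113) and by 0.46 ± 0.14 between old CR and old mice (adjusted p = 0.0725). Without young replicate 3 limma called it lower in old mice (difference -0.58).

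Pfkp ran the other way at far lower intensity, with 199.8, 176, 133, 173 and 173 in old CR mice, 241, 245, 259.5, 155 and 263 in old mice, and 218, 342, 208, 268 and 270.1 in young mice. All 5 old CR mice lay below all 5 young mice, and 1 old mouse, replicate 4, lay among the old CR mice. The differences were -0.60 ± 0.18 for old CR against young mice (adjusted p = 0.202) and -0.43 ± 0.18 for old CR against old mice (adjusted p = 0.18), and neither was called. Pfkl, at 535 to 738 in old CR mice, 384 to 592 in old mice and 305 to 1113 in young mice, was not called in any comparison, and was called lower in old mice (difference -0.86) without young replicate 3.

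Fbp2, the muscle fructose bisphosphatase that runs the phosphofructokinase step backwards, had intensities of 2144, 2827, 2246, 2887 and 2254 in old CR mice, 1477, 1724, 1615, 2701 and 1867 in old mice, and 1747, 1750.5, 2379, 1516 and 1619 in young mice. The old CR mice were the brightest on the whole, but old replicate 4 and young replicate 3 lay within their range. Fbp2 differed by 0.46 ± 0.18 between old CR and young mice (adjusted p = 0.309) and by 0.42 ± 0.18 between old CR and old mice (adjusted p = 0.184), with no call. Between old and young mice the difference was 0.04 ± 0.18.

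Pfkfb3 makes fructose 2,6-bisphosphate, the strongest known activator of phosphofructokinase. Its called probe set, 1456676_a_at, had intensities of 282, 1211, 446, 759 and 536 in old CR mice, 180.0, 204, 192, 215 and 303 in old mice, and 1060.0, 1044, 312, 719 and 684 in young mice. Old mice were uniformly dim, old CR mice spread widely and overlapped them at replicate 2, and young replicate 3 was the dimmest young mouse. It was higher in old CR than in old mice by 1.42 ± 0.38 (adjusted p = 0.0481), a 2.67-fold difference, and the difference between old and young mice was -1.71 ± 0.38 without a call (adjusted p = 0.0714). The brighter probe set of the gene, 1416432_at, ranged from 989 to 3569 in old CR mice, 788 to 2492 in old mice and 1218 to 3582 in young mice, and differed by 0.20 ± 0.39 between old CR and old mice. The call on Pfkfb3 thus rests on 1 of its 2 probe sets. It held in 2 of the 15 fits that left out 1 array, and with the 3'-to-5' gap as a covariate the difference was 0.51 ± 0.77 (adjusted p = 0.936). Without young replicate 3 the probe set was called lower in old than in young mice as well (difference -2.0).

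Aldolase splits fructose bisphosphate, and Aldoa is the muscle isoform. The brightest Aldoa probe set, 1416921_x_at, had intensities of 30301, 40217, 41199, 41186 and 47138 in old CR mice, 26566, 22859, 28980.4, 24106 and 33541 in old mice, and 32775, 34928, 32179, 31362 and 31908 in young mice. Of the old CR mice 4 were above every old mouse, and old CR replicate 2 lay below the brightest old mouse, while the young mice fell in a narrow band that overlapped both groups. Aldoa was higher in old CR than in old mice by 0.56 ± 0.14 (adjusted p = 0.0365), a 1.47-fold difference, and differed by -0.27 ± 0.14 between old and young mice (adjusted p = 0.358). With quantile normalization the first difference was 0.29, with the 3'-to-5' gap as a covariate 0.43 ± 0.29, and neither was called. The other 3 Aldoa probe sets differed by 0.30 to 0.48 between old CR and old mice, none called. All 4 carry the suffix x, which marks probes that may also bind other transcripts, and the called probe set lay near the top of the arrays, whose brightest values were 30301 to 47253. Aldoc, the brain isoform, was at 79.2 to 196 in old CR mice, 94.1 to 153 in old mice and 147 to 213 in young mice.

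Triosephosphate isomerase, encoded by Tpi1, turns the other product of that split into glyceraldehyde 3-phosphate. Its promoter is shown as that of a called glycolytic gene: 300 bases, from 250 before the RefSeq start to 50 after it, at chr6:124814109-124814408 on the minus strand of GRCm38.p6, with capitals marking a GC box (GGGCGG, or CCGCCC on the other strand).
Tpi1: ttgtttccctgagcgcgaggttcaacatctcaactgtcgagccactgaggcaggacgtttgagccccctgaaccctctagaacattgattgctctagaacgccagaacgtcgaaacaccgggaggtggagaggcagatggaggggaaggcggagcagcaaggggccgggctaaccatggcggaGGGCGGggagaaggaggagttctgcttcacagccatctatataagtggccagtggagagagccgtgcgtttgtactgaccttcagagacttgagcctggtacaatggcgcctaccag
The called probe set of Tpi1, 1435659_a_at, had intensities of 8534, 9411, 11141, 11444 and 10390.1 in old CR mice, 6586, 8861, 7391, 5697 and 6361 in old mice, and 10049.6, 9329, 8516, 9020.0 and 8385 in young mice. Only old replicate 2 reached into the old CR range. Tpi1 was higher in old CR than in old mice by 0.55 ± 0.14 (adjusted p = 0.035), a 1.47-fold difference, and the difference between old and young mice was -0.39 ± 0.14 (adjusted p = 0.184). With the 3'-to-5' gap as a covariate the difference between old CR and old mice was 0.36 ± 0.28, without a call.

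The brightest Tpi1 probe set, 1415918_a_at, had intensities of 15179, 19109, 21776, 22263 and 18524 in old CR mice, 11518, 14167, 16369, 11156 and 15676 in old mice, and 22382, 18666, 15906, 19574 and 20683 in young mice. Its old mice were the dimmest group, with an overlap at old replicates 3 and 5. It differed by -0.51 ± 0.15 between old and young mice (adjusted p = 0.136) and by 0.50 ± 0.15 between old CR and old mice (adjusted p = 0.0772), with no call. The third probe set, 1452927_x_at, differed by -0.43 ± 0.14 between old and young mice, whose values did not overlap, and by 0.45 ± 0.14 between old CR and old mice, so the 3 Tpi1 probe sets gave nearly the same size.

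Gapdh oxidizes glyceraldehyde 3-phosphate and yields NADH. On this array the gene was read by 3 control probe sets placed at the 5' end, the middle and the 3' end of the transcript. At the 5' end the intensities were 21997, 28829, 30693, 29900.3 and 31253 in old CR mice, 17736, 16616, 19092, 16849 and 19421 in old mice, and 27754, 27944, 19046, 26940.1 and 27024 in young mice. All old CR mice were above all old mice, and young replicate 3 lay among the old mice. The difference was 0.66 between old CR and old mice (exact permutation p = 0.00794, two-sided, adjusted p = 0.0714 over the 9 Gapdh tests) and -0.51 between old and young mice (exact permutation p = 0.0238, adjusted p = 0.0714). At the 3' end the same differences were 0.20 (exact permutation p = 0.19) and -0.22 (exact permutation p = 0.0159, adjusted p = 0.0714), and in the middle 0.24 and -0.29. None of the 9 tests passed after adjustment. With 5 mice against 5 the smallest exact p is 0.00794, so a single test that reached it could not pass over 9 tests. The size between old CR and old mice depended on which end was read.

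Phosphoglycerate kinase, Pgk1, makes the first ATP of the lower pathway. Its brightest probe set averaged 15648 ± 1568 in old CR mice, 13616 ± 1234 in old mice and 13739.7 ± 1117 in young mice (SD, n = 5 each). It differed by -0.01 ± 0.11 between old and young mice and by 0.20 ± 0.11 between old CR and old mice, neither called.

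Phosphoglycerate mutase has a muscle isoform, Pgam2, and a general isoform, Pgam1. Pgam2 had intensities of 13973, 13205, 17743, 17443 and 16964 in old CR mice, 13583, 13781, 15748, 11998 and 16808 in old mice, and 19602, 19408, 21274, 20850.0 and 19819.9 in young mice. Every young mouse was above every old and every old CR mouse, and young replicate 3 was here the brightest of all. Pgam2 differed by -0.50 ± 0.13 between old and young mice (adjusted p = 0.0949) and by -0.36 ± 0.13 between old CR and young mice (adjusted p = 0.273), short of a call in both, while old CR and old mice differed by 0.14 ± 0.13 (adjusted p = 0.554). Pgam1 was dim, at 296 to 419 in old CR mice, 216 to 449 in old mice and 303 to 466 in young mice.

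Bpgm makes 2,3-bisphosphoglycerate, a side branch at this step that is best known in red blood cells. Its promoter is shown beside that of Tpi1 for comparison, at chr6:34476106-34476405 on the plus strand of GRCm38.p6 (RefSeq), with its GC box in capitals.
Bpgm: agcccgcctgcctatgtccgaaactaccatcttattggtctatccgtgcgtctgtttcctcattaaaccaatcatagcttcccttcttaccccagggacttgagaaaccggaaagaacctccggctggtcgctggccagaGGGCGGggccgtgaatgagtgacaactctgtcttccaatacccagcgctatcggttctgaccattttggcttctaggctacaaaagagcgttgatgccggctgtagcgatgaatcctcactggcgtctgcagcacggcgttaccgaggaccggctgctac
The brightest Bpgm probe set, 1448119_at, had intensities of 1047, 1304, 1397, 1736 and 1853 in old CR mice, 538, 666, 847, 723 and 659 in old mice, and 2143, 2483, 759.7, 2100.1 and 1968 in young mice. Old CR and old mice did not overlap, and 4 young mice were brighter than every old CR mouse, with young replicate 3 at the level of the old mice. Bpgm was higher in old CR than in old mice by 1.08 ± 0.28 (adjusted p = 0.0429), a 2.12-fold difference, and differed by -1.37 ± 0.28 between old and young mice without a call (adjusted p = 0.0556). Without young replicate 3 it was called lower in old mice (difference -1.67).

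The other Bpgm probe sets did not give the same size. Probe set 1415864_at differed by 0.59 ± 0.21 between old CR and old mice, with no overlap of the groups and no call (adjusted p = 0.112), and 1415865_s_at by -0.35 ± 0.19, in the other direction (adjusted p = 0.314). Between old and young mice 1415864_at differed by -0.66 ± 0.21 (adjusted p = 0.143), and without young replicate 3 it was called lower in old mice (difference -0.84). With the 3'-to-5' gap as a covariate the difference of 1448119_at between old CR and old mice was -0.30 ± 0.42. Of 9 red blood cell markers 4 were measured and none was called, and their summed intensities were 296 to 547 in old CR mice, 168 to 1566 in old mice and 486 to 1973 in young mice. Their part in the Bpgm values was not tested.

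Enolase 3, Eno3, is the muscle enolase. It averaged 24558 ± 3465 in old CR mice, 22816 ± 2319 in old mice and 26121 ± 811 in young mice (SD, n = 5 each), with differences of 0.10 ± 0.12 and -0.20 ± 0.12 for old CR against old and old against young mice.

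Pyruvate kinase, Pkm, closes glycolysis and also makes ATP. Pkm had intensities of 11504, 14042, 16701, 16168 and 15371 in old CR mice, 9189, 8942, 11545, 8869.9 and 10243 in old mice, and 14747, 16725, 11891, 15418 and 15449 in young mice. All young mice, replicate 3 included, lay above all old mice, and of the old CR mice only replicate 2 fell below the brightest old mouse. Pkm was higher in old CR than in old mice by 0.59 ± 0.14 (adjusted p = 0.0299), a 1.51-fold difference. Old and young mice differed by -0.60 ± 0.14, short of a call (adjusted p = 0.0746), and without young replicate 3 Pkm was called lower in old mice (difference -0.68). Old CR and young mice differed by -0.01 ± 0.14. With the 3'-to-5' gap as a covariate the difference between old CR and old mice was 0.25 ± 0.28, without a call.

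Lactate dehydrogenase regenerates NAD from NADH, with Ldha as the subunit of fast muscle and Ldhb as that of heart and slow muscle. Ldha averaged 21877 ± 4074 in old CR mice, 16696 ± 1614 in old mice and 21005 ± 1383 in young mice (SD, n = 5 each). The old and young values did not overlap, and the differences, -0.33 ± 0.14 for old against young mice (adjusted p = 0.259) and 0.37 ± 0.14 for old CR against old mice (adjusted p = 0.129), were not called. Ldhb by its brightest probe set ranged from 4051 to 10445 in old CR mice, 4159 to 6939 in old mice and 5321 to 8812 in young mice, with no call in any comparison.

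**Figure D2:**
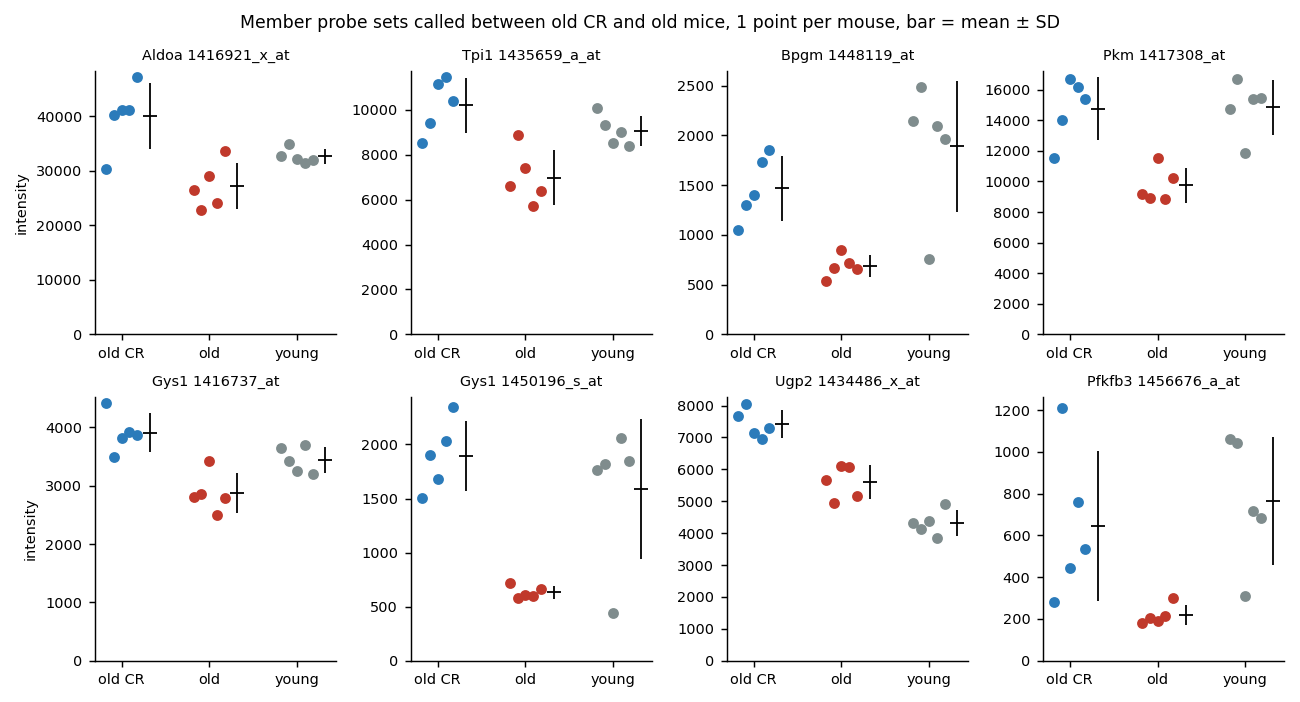
Intensity in each mouse (points) for the 8 probe sets called between old CR and old mice, with old CR, old and young mice from left to right. The bar beside each group is its mean ± SD, old mice have the lowest mean in every panel except that of Ugp2, and the young mouse far below the other young mice in the panels of Bpgm (760), Pfkfb3 and Gys1 1450196_s_at (446) is replicate 3.

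Glycogen phosphorylase releases glucose 1-phosphate, and Pygm is its muscle form. Pygm averaged 21012 ± 3329 in old CR mice, 15462 ± 1230.1 in old mice and 21508 ± 2877 in young mice (SD, n = 5 each). Old CR and old mice overlapped only through old CR replicate 2. Pygm differed by 0.43 ± 0.14 between old CR and old mice (adjusted p = 0.0976) and by -0.47 ± 0.14 between old and young mice (adjusted p = 0.139), and without young replicate 3 it was called lower in old mice (difference -0.56). Pygb, the brain form, was dim and scattered, at 48.2 to 407 in old CR mice, 218 to 516 in old mice and 72.8 to 489 in young mice.

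Phosphorylase kinase switches phosphorylase on, and Phka1 encodes its muscle alpha subunit. The brightest Phka1 probe set, 1422743_at, had intensities of 3588, 4974, 6784, 7302 and 6919 in old CR mice, 6262, 5926, 7146, 5712 and 7237 in old mice, and 9732, 8212, 7365, 8507 and 9883 in young mice. The old CR mice were all below the young mice, and so were the old mice, while old CR and old mice overlapped. Phka1 differed by -0.60 ± 0.19 between old CR and young mice (adjusted p = 0.212) and by -0.17 ± 0.19 between old CR and old mice (adjusted p = 0.642).

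The other Phka1 probe sets pointed the same way. Between old CR and young mice 1435567_at differed by -0.92 ± 0.21 and 1422744_at by -0.88 ± 0.23, with no overlap of the groups for either and adjusted p of 0.111 and 0.142. Between old CR and old mice 1435567_at, chosen here after its values were seen, read 1922, 2559, 3814, 4666 and 4266 in old CR mice and 5603, 5831, 5867, 4746 and 5776 in old mice. These groups did not overlap and the difference of -0.76 ± 0.21 had an adjusted p of 0.0514. It was the only member probe set lower in old CR than in old mice without overlap, and it was called lower without young replicate 3. Probe set 1422744_at differed by -0.42 ± 0.23 between old CR and old mice (adjusted p = 0.296), with overlap. All 3 Phka1 probe sets thus had the opposite sign to most members in that comparison, with no call in the fit of all arrays.

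The other phosphorylase kinase subunits were not called. Phkb, the beta subunit, differed by -0.11 ± 0.15 between old CR and young mice and by 0.03 ± 0.15 between old and young mice. Phkg1, the catalytic subunit of muscle, averaged 1902 ± 429 in old CR mice, 1538 ± 315 in old mice and 2216 ± 207 in young mice (SD, n = 5 each) and differed by -0.54 ± 0.18 between old and young mice (adjusted p = 0.165). Phkg2, the catalytic subunit of liver, was at 281 to 461 in old CR mice, 285 to 447 in old mice and 374 to 475 in young mice.

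Glycogen synthase of muscle, Gys1, adds UDP-glucose to the growing chain, and its call between old CR and old mice held in more of the fits that left out 1 array than that of any other member. Its promoter, at chr7:45434589-45434888 on the plus strand of GRCm38.p6 (RefSeq), carries 3 GC boxes (capitals, here read as CCGCCC).
Gys1: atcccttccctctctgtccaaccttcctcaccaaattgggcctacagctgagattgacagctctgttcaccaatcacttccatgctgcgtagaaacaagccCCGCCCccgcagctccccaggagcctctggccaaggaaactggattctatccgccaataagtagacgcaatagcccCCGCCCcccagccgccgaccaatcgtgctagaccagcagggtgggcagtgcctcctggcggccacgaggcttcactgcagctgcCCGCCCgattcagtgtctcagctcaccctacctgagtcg
Probe set 1450196_s_at had intensities of 1504, 1904, 1681, 2029 and 2345 in old CR mice, 723, 579.6, 608, 597 and 659.9 in old mice, and 1761, 1817, 446, 2063 and 1846 in young mice. Every old CR mouse was above every old mouse, and young replicate 3 was dimmer than any old mouse. Gys1 was higher in old CR than in old mice by 1.57 ± 0.34 (adjusted p = 0.0218), a 2.96-fold difference and the largest among the called members, and it was called in 13 of the 15 fits that left out 1 array. With the 3'-to-5' gap as a covariate the difference was -0.0024 ± 0.53. Old and young mice differed by -1.15 ± 0.34 (adjusted p = 0.124), and without young replicate 3 it was called lower in old mice (difference -1.56).

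The suffix s of that probe set marks probes shared by several transcripts, so its level is less certain. The brighter Gys1 probe set, 1416737_at, had intensities of 4426, 3496, 3817, 3914 and 3870.4 in old CR mice, 2805, 2862, 3427, 2496 and 2789 in old mice, and 3649, 3428, 3259.5, 3691 and 3206 in young mice. Old CR and old mice again did not overlap, and young mice overlapped with both. The difference between old CR and old mice was 0.44 ± 0.11 (adjusted p = 0.0389), a 1.36-fold difference, and with the covariate it was 0.33 ± 0.24, no longer called. Between old and young mice it was -0.27 ± 0.11 (adjusted p = 0.272).

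Gbe1, the branching enzyme of glycogen, had intensities of 1392, 879.6, 599.9, 462 and 545 in old CR mice, 765, 471, 879, 787 and 579.6 in old mice, and 555, 299, 379, 525 and 496 in young mice. The young mice were the dimmest group, old CR replicate 2 the brightest mouse, and the groups overlapped. Gbe1 differed by 0.70 ± 0.29 between old CR and young mice (adjusted p = 0.354) and by 0.63 ± 0.29 between old and young mice (adjusted p = 0.318), the highest value among the members between old and young mice, with no call.

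Ugp2 makes UDP-glucose, the donor for glycogen, and is shown with both of its RefSeq promoters because it alone was called in both comparisons of old CR mice. Window 1 lies at chr11:21371218-21371517 and window 2 at chr11:21370580-21370879, both on the minus strand of GRCm38.p6. Capitals mark GC boxes and, in window 1, the core ACGTG of the hypoxia response element.
Ugp2 window 1: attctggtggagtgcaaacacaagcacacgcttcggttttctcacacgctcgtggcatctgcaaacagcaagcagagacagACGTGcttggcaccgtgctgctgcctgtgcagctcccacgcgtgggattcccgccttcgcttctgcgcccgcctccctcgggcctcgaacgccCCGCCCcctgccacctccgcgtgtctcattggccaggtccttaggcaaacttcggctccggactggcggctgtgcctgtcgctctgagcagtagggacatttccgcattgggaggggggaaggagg
Ugp2 window 2: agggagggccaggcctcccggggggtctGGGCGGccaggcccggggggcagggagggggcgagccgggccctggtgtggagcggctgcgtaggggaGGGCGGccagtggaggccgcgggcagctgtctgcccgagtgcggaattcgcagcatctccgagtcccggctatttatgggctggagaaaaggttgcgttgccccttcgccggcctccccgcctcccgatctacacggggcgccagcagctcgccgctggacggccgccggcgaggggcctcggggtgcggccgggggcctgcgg
The called Ugp2 probe set, 1434486_x_at, had intensities of 7658, 8058, 7124, 6955 and 7307 in old CR mice, 5678, 4939, 6112, 6071 and 5167 in old mice, and 4308, 4116, 4376, 3842 and 4925 in young mice. The 3 groups did not overlap at all, with old CR mice brightest, old mice between and young mice dimmest, and young replicate 3 lay within its own group. Ugp2 was higher in old CR than in old mice by 0.41 ± 0.11 (adjusted p = 0.046) and than in young mice by 0.79 ± 0.11 (adjusted p = 0.0136), a 1.72-fold difference. Old and young mice differed by 0.37 ± 0.11 (adjusted p = 0.123).

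The suffix x of that probe set marks probes that may also bind other transcripts, and the 5 Ugp2 probe sets had the same sign throughout. They differed by 0.31 to 0.79 between old CR and young mice, by 0.20 to 0.46 between old and young mice and by 0.09 to 0.50 between old CR and old mice. Ugp2 thus stood apart from the members called with it, for which old mice were the dimmest group: its values were higher in old mice than in young mice. With the 3'-to-5' gap as a covariate 1434486_x_at differed by 0.82 between old CR and young mice and was still called (adjusted p = 0.046). The call was lost in 1 of the 15 fits that left out an array, that without old CR replicate 3 (adjusted p = 0.0505), and it was also lost with only the 2 groups compared in the fit (adjusted p = 0.423). The lognormal-normal model gave this difference a posterior probability of 0.0881. Against old mice the call of old CR mice held in 2 of the 15 fits that left out an array, and with the covariate the difference was 0.55 ± 0.23, without a call.

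**Figure D3:**
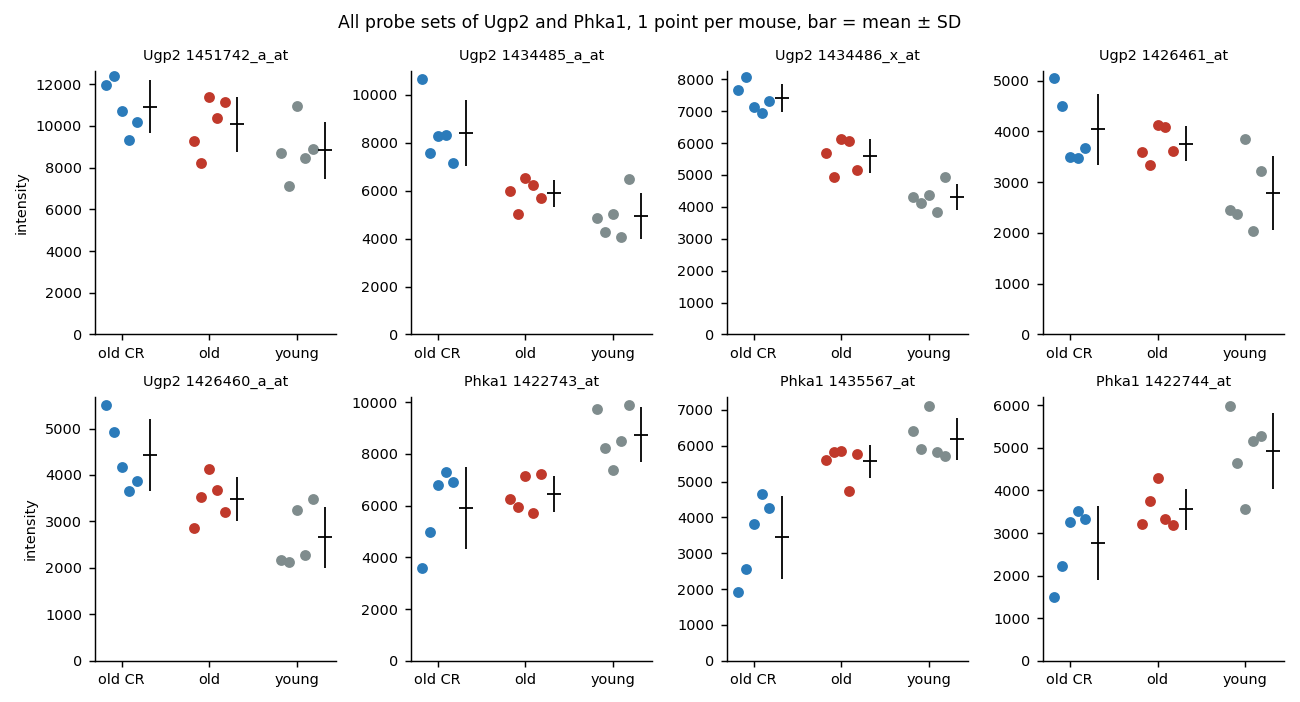
Intensity in each mouse for the probe sets of Ugp2 and of Phka1, with old CR, old and young mice from left to right in each panel. By group means Ugp2 is brightest in old CR mice and Phka1 dimmest in old CR mice, with young mice at the opposite end for both.

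The promoter windows of the members were also searched as a set, for 29 of the 30 genes with a probe set (40 windows; Slc2a4 had no entry). The motif ACGTG, read on both strands, stood in the windows of 16 genes (55.2%), against 21.8% of 27025 genes with windows of the same length. GGGCGG or its complement CCGCCC stood in those of 19 genes (65.5%), against 38.2%, the E-box CACGTG, every copy of which also holds ACGTG, in 4 (13.8%), against 8.09%, and TATAAA in 1 (3.45%), against 15.7%. A gene with more windows has more places for a match, so the counts by window are given too. Of the 40 member windows ACGTG stood in 19, against 19.6% of 32851 windows, and GGGCGG in 22, against 35.7%. CACGTG stood in 4, against 7.15%, and TATAAA in 1, against 13.6%. A match is a description of letters in the window, and no test was made.

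For the 16 genes with several probe sets the size of a difference could be compared within the gene. Between old CR and old mice the range over the probe sets of a gene had a median of 0.26 on the log2 scale and reached 2.23, for Hk1, and the sign was the same for all probe sets of 14 genes. Slc2a4, Gys1, Pfkfb3 and Bpgm, chosen here after their values were seen, were read on each array as the log2 difference of 1 probe set from another of the same gene, which array scaling cannot move. For Slc2a4 (1415959_at minus 1415958_at) it was -0.37 to 0.29 in old CR mice, -1.0 to -0.78 in old mice and 0.01 to 0.18 in 4 young mice, with -1.73 in young replicate 3. For Gys1 (1450196_s_at minus 1416737_at) it was -1.56 to -0.72 in old CR mice, -2.49 to -1.96 in old mice and -1.05 to -0.80 in 4 young mice, with -2.87 in young replicate 3. Slc2a4 1415959_at by itself differed by -1.05 ± 0.32 between old and young mice (adjusted p = 0.136) and by 1.08 ± 0.32 between old CR and old mice, whose values did not overlap (adjusted p = 0.0672). Neither was called with all arrays, and both were without young replicate 3 (differences -1.43 and 1.08).

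Bpgm (1448119_at minus 1415865_s_at) showed the same order, with 0.41 to 1.44 in old CR mice, -1.13 to -0.45 in old mice and 0.59 to 1.38 in 4 young mice, with -1.10 in young replicate 3. Pfkfb3 (1456676_a_at minus 1416432_at) was the loosest, at -2.46 to -0.88 in old CR mice, -3.30 to -2.13 in old mice and -1.76 to -0.63 in 4 young mice, with -3.31 in young replicate 3. In all 4 genes the old mice and young replicate 3 were on 1 side and the other young mice on the other. The same mice had the widest 3'-to-5' gaps of Gapdh, 0.13 to 0.40 in old mice and 0.28 in young replicate 3. The positions of these probe sets in their transcripts were not used here, and the part of RNA quality in these differences was not tested.

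**Figure D4:**
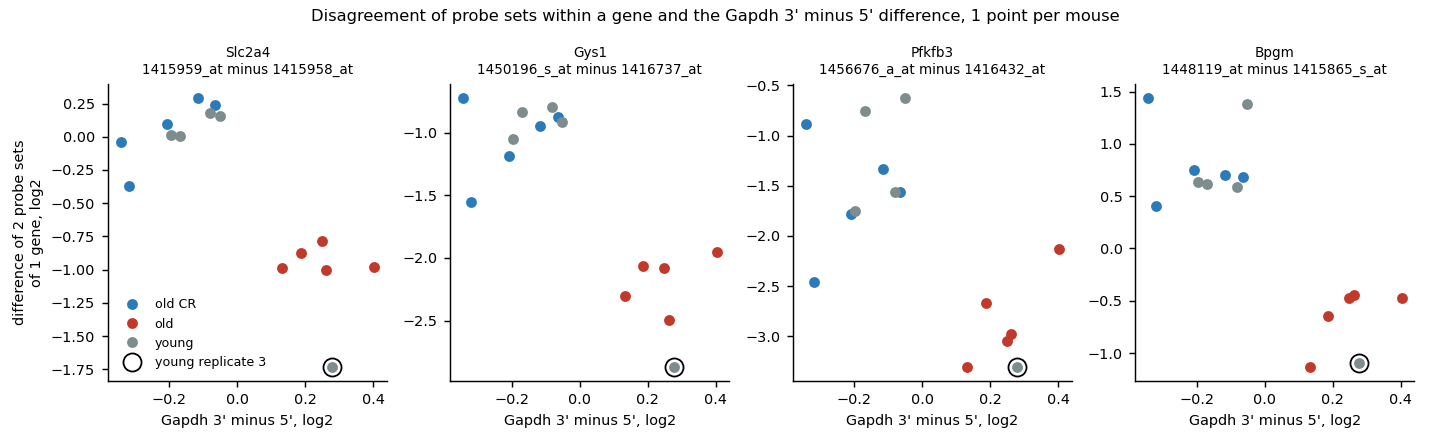
Within-array log2 difference between 2 probe sets of the same gene for Slc2a4, Gys1, Pfkfb3 and Bpgm (vertical axis) against the 3'-to-5' gap of Gapdh (log2, horizontal axis), with 1 point for each of the 15 mice. The 5 old mice and young replicate 3 lie to the lower right in each panel, and the old CR mice and the other young mice to the upper left, although for Pfkfb3 the lowest old CR mouse, at -2.46, is below the highest old mouse, at -2.13.

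Isoforms of a step were set against each other within each array, in 9 pairs and 3 comparisons. None of the 27 tests passed after adjustment, and the smallest adjusted p was 0.0857. With 5 mice against 5 the smallest exact p is 0.00794, so at least 5 of the 27 tests had to reach it for a pass, and 2 did. The first was the platelet over the muscle phosphofructokinase, Pfkp minus Pfkm, which averaged -6.93 ± 0.35 in old CR mice and -6.04 ± 0.19 in old mice (SD, n = 5 each, exact permutation p = 0.00794, two-sided), with no overlap. The second was Hk1 minus Hk2, which averaged -3.51 ± 0.18 in old CR mice and -2.92 ± 0.20 in old mice (exact permutation p = 0.00794), also with no overlap. The differences were -0.89 and -0.60, and a lower value means a brighter muscle isoform relative to its partner. For hexokinase this holds for the brightest Hk1 probe set only. The dimmer Hk1 probe set, 1420901_a_at, differed by 2.12 ± 0.69 between old CR and old mice, in the other direction. Slc2a1 minus Slc2a4 differed by 0.72 between old CR and young mice (exact permutation p = 0.0159), and the pairs of aldolase, phosphoglycerate mutase, lactate dehydrogenase, phosphorylase and phosphorylase kinase had adjusted p of 0.179 or more.

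**Figure D5:**
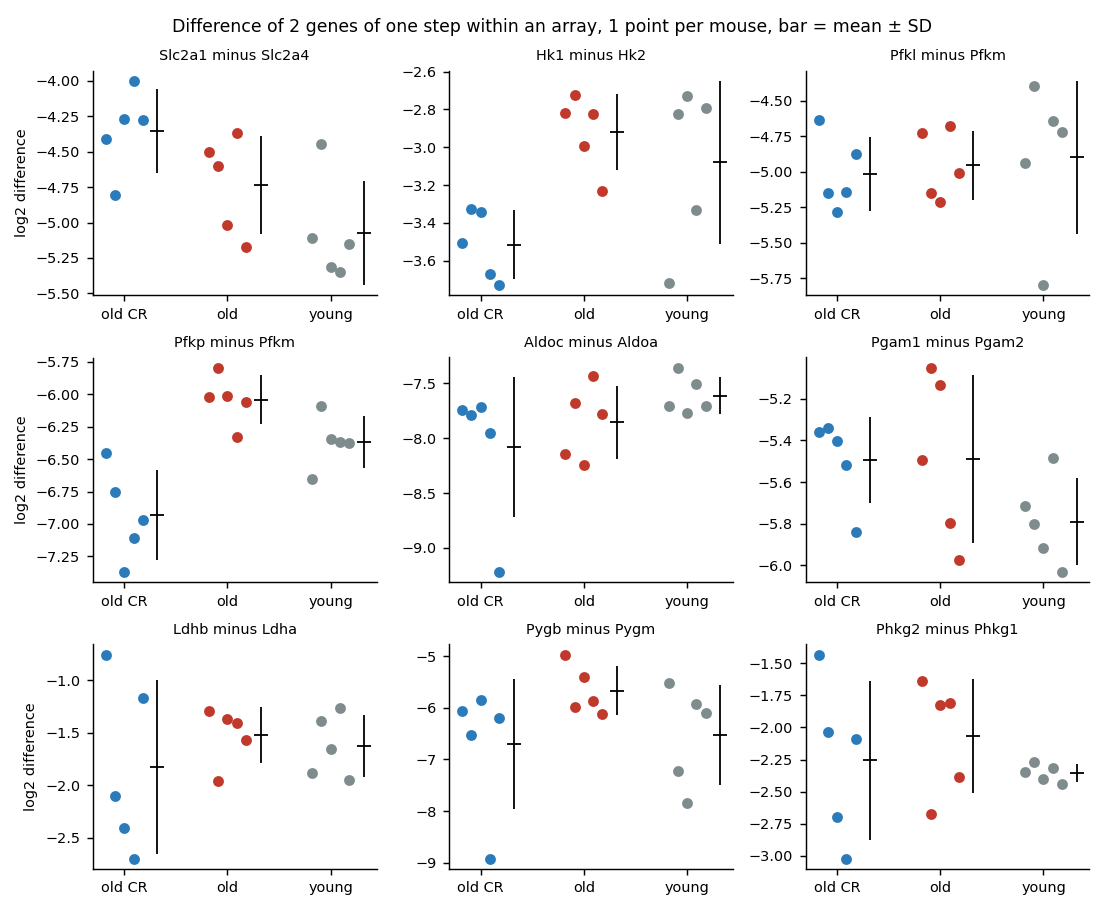
Within-array log2 difference between the brightest probe sets of 2 isoforms of the same step, in each mouse (points) with group means (bars), for old CR, old and young mice from left to right. Pfkp minus Pfkm and Hk1 minus Hk2 are lower in all old CR mice than in all old mice, and the level of a pair, unlike its change between groups, depends on the probes.

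Of 42 further genes of glycolysis and glycogen metabolism 29 were measured, and between old CR and old mice 1 was called higher and 1 lower by limma. G6pc3, a glucose 6-phosphatase found in most tissues, averaged 671 ± 113 in old CR mice and 314 ± 93.5 in old mice (SD, n = 5 each), a difference of 1.13 ± 0.25 (adjusted p = 0.0234). Slc2a3, the glucose transporter of neurons and blood cells, averaged 485 ± 174 in old CR mice and 933 ± 155 in old mice, a difference of -1.02 ± 0.26 (adjusted p = 0.0407). None was called between old and young or between old CR and young mice. The median difference of these genes was 0.02 between old CR and old mice and -0.02 between old and young mice, beside 0.06 and -0.06 over all probe sets.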

How the data were processed

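Labelled cRNA made from gastrocnemius RNA of 15 mice was hybridized to 15 Affymetrix MOE430A arrays, 1 per mouse, with oligo-dT primed labelling. The deposited values are intensities per probe set on a linear scale. The methods describe arrays scanned more than once with the images averaged, RMA as the normalization and MAS5 for calls of presence; the submitters' processing notes name both without versions. Which of them made the deposited values is not given in the sources used here. They are not on the log2 scale of RMA, and each array's mean, trimmed by 2% at each end, is near a common target. Depth does not apply to arrays, and the number of arrays limits the precision.

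The members and gene lists were chosen with earlier results of these data known. Intensities were taken as log2 with no pseudocount and fitted with limma 3.58.1 (R 4.3.3; lmFit, contrasts.fit, eBayes) over 22626 probe sets, leaving out 64 control probe sets, with the 3 groups in 1 fit and Benjamini-Hochberg adjustment per comparison. Groups came from the sample labels. Each member was named by its brightest probe set, with any other called probe set. Values of single mice were given for members called and for the 5 members of smallest adjusted p in each comparison. Other lists name up to 4 called genes of smallest adjusted p. Isoform pairs and Gapdh were compared by exact permutation tests over mice (Python 3.11.15). The fit was tested on simulated data. Alternatives were the brighter probe sets, other scalings, a pseudocount of 50, other fits, the mean gap of Gapdh and Actb control probe sets as a covariate, a replicate block, a lognormal-normal model with a posterior probability over 0.9, and leaving out each array. Promoters are from RefSeq tables of GRCm38.p6. Symbols came from the platform annotation, which gives 20393 probe sets 1 symbol, 691 several and 1606 none.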

Additional observations from a re-analysis of the deposited data

Results flagged for a closer look

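In 99 groups of 5 values (33 probe sets in 3 groups) a lone value was looked for with Dixon's test at a critical value of 0.71, which chance alone would pass in about 1 of 20 groups, and 9 groups had such a value. Young replicate 3 was the low value on 3 probe sets. It had 16927 for Pfkm, where the other young mice had 21918 to 23365, it had 759.7 for Bpgm 1448119_at, where the others had 1968 to 2483, and it had 446 for Gys1 1450196_s_at, where the others had 1761 to 2063. Old CR replicate 2 was low on Pgk1, with 12964 beside 15936 to 17081, and on Pygm, with 15306 beside 21401 to 23460. Old CR replicate 3 had 169 for Slc2a1, beside 265 to 295, and old CR replicate 6 had 48.2 for Pygb, beside 231 to 407. Old replicate 4 had 155 for Pfkp, beside 241 to 263. Young replicate 2 had 3054 for Phkb, beside 3898 to 4053. All 9 lone values were the lowest of their group.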

How the results depend on the processing

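Between old and young mice the main fit called no member probe set. It called 7 among the brighter 11313 probe sets only, 3 with log2(value + 50), 6 with a variance trend and robust eBayes (5 lower and 1 higher, Ugp2), 9 with array weights and 4 at an adjusted p under 0.10. The lognormal-normal model called 4. Leaving out 1 array gave 0 to 9, and 9 only without young replicate 3. The counts here and below are of member probe sets. For most of these fits the share of all probe sets called is not given. A changed count therefore does not show whether the members moved more than other probe sets.

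Between old CR and old mice the 8 calls became 18 among the brighter probe sets (17 higher), 5 with arrays centred on their median (4 higher), 4 with quantile normalization (3 higher), 13 with log2(value + 50) (12 higher), 4 with only the 2 groups compared (4 higher), 17 with the variance trend (16 higher), 10 with array weights (9 higher), 18 at an adjusted p under 0.10 (17 higher), 5 by the lognormal-normal model (4 higher), and 0 with the 3'-to-5' covariate. Where 1 was lower, it was Phka1 1435567_at. Leaving out 1 array gave 0 to 13. It was 0 without old CR replicate 7, 1 without old replicate 1, 2 or 4 or old CR replicate 5, 2 without old CR replicate 6, 3 without old replicate 3 or 5, 4 without young replicate 1 or 4 or old CR replicate 3, and 13 without young replicate 3. The covariate turned 2 differences, Bpgm 1448119_at to -0.30 and Gys1 1450196_s_at to -0.0024. The median over genes, 0.20, was 0.37 when the probe sets of a gene were averaged and 0.09 with the covariate.

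Between old CR and young mice the 1 call became 5 among the brighter probe sets (3 higher and 2 lower), 2 with log2(value + 50), 0 with only the 2 groups compared, 4 with the variance trend and 2 at an adjusted p under 0.10, and leaving out 1 array gave 0 to 1, with 0 without old CR replicate 3. The lognormal-normal model also called 1, but a different probe set, Phka1 1435567_at, lower in old CR mice (posterior probability 0.972), and gave Ugp2 1434486_x_at 0.0881.

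Replicate numbers did not pair the mice: 11 same-numbered pairs correlated at -0.28 to 0.09. With a replicate block 0 were called between old CR and old mice, 0 between old CR and young mice and 0 between old and young mice. Over the 25 limma alternatives of each of the 9 single calls, 119 kept the call, 104 lost it and 2 turned, and the lognormal-normal model kept 3 of the 9. No isoform test passed in any setting, and the cause of these differences was not tested.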

Other observations

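Genes that hand on the products of glycolysis were also measured. Of 19 genes of the NADH shuttles and the pentose phosphate pathway 16 had a probe set, and limma called 2 higher in old CR than in old mice and none lower. Tkt, the transketolase of the pentose phosphate pathway, averaged 1493 ± 341 in old CR mice and 611 ± 202 in old mice (SD, n = 5 each), a difference of 1.33 ± 0.29 (adjusted p = 0.0243). Got1, the cytosolic aspartate aminotransferase of the malate-aspartate shuttle, averaged 9298 ± 1114 in old CR mice and 5896 ± 1175 in old mice, a difference of 0.68 ± 0.17 (adjusted p = 0.0365). None of these genes was called in the other comparisons.

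Of 36 regulators of the pathway 29 were measured. Egln3, a prolyl hydroxylase of the hypoxia response, averaged 3093 ± 1021 in old CR mice and 1234 ± 226 in old mice, a difference of 1.28 ± 0.21 (adjusted p = 0.00791 by limma). It averaged 988 ± 93.3 in young mice, from which old CR mice differed by 1.59 ± 0.21 (adjusted p = 0.0105). Mlxip, a glucose-sensing transcription factor, averaged 692 ± 109 in old CR mice and 1244 ± 263 in old mice, a difference of -0.84 ± 0.16 (adjusted p = 0.0143). Tbc1d1, a brake on glucose transporter movement, averaged 399 ± 92.3 in old CR mice and 682 ± 137 in old mice, a difference of -0.78 ± 0.21 (adjusted p = 0.0471). No regulator was called between old and young mice. Among markers of other cells, limma called none of the adipocyte (6 of 8 measured), macrophage (7 of 7), endothelial (6 of 6) or Schwann cell (4 of 6) lists in any comparison, and of 8 fibroblast and tendon markers it called Col1a2, lower in old CR than in young mice (difference -1.49).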
